A study of Bos taurus with 22 samples.

Results

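bta-miR-103 and bta-miR-107 are paralogous miRNAs of cattle, and they were taken as the rows of the deposited read table that carry these names, 2 of 844 rows. Of the 844 rows, 611 are bovine miRNAs and 233 are human homologues, and no other row is named for either miRNA. Plasma came from the jugular vein of 11 Holstein-Friesian heifers. Small RNA of the samples drawn at insemination (Day 0) and in pregnancy (Day 60) was sequenced in 22 libraries. Samples that the study drew on days between were not sequenced. The heifers were in the second year of life, had not been inseminated before, were oestrus-synchronised and were later found pregnant by ultrasound. Every heifer gave both samples, and no non-pregnant heifer was sampled on Day 60, so pregnancy and the passing of 60 days cannot be told apart. Total miRNA reads ran from 1912290 to 6839128 on Day 0 and from 304117 to 12775451 on Day 60. The shallowest library, Day 60 of heifer 17, was kept, and values that rest on it are also given without it where a call changes.

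Both miRNAs lie within genes for pantothenate kinases, the enzymes that start coenzyme A synthesis, and they are known from mice as brakes on insulin sensitivity in liver and fat, where caveolin-1 is one of their targets. They belong to the miR-15 and miR-107 group, miRNAs that share a core of the seed, the stretch near the 5′ end that pairs with target mRNAs. Plasma carries miRNAs in vesicles and in protein complexes released by blood cells and by tissues, and in such a fluid fewer releasing cells and less miRNA released per cell cannot be told apart.

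The read table placed miR-103 on chromosome 13 of bosTau4, from 51838784 to 51838806 on the minus strand, and miR-107 on chromosome 26, from 11661299 to 11661320 on the minus strand. In the RefSeq annotation of the ARS-UCD2.0 assembly, used here for names and neighbours only, the gene MIR103-2 lies within PANK2 on chromosome 13 and MIR107 lies within PANK1 on chromosome 26. A further gene, MIR103-1, lies within PANK3 on chromosome 20. Both MIR103 genes give the same mature miRNA, so the single row of miR-103 does not separate their reads. The mature forms of miR-103 and miR-107 are nearly identical, and the authors allowed 1 mismatch in mapping, so how their reads were split between the rows is uncertain. The level of miR-107 is the value most exposed to this, because its reads were few beside those of miR-103.

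miR-103 was among the abundant miRNAs of plasma on Day 0 and fell to a lower level on Day 60. Levels are given as RPMM, the reads of a miRNA scaled to 1000000 miRNA reads in the library. On Day 0 the lowest level was 11370 RPMM (heifer 32), the median 27674 and the highest 46385 (heifer 28). On Day 60 the lowest was 8570 RPMM (heifer 31), the median 12884 and the highest 21358 (heifer 32). The days overlapped in part. All 11 Day 60 libraries lay below the Day 0 median, 7 Day 0 libraries lay above every Day 60 library, and 1 Day 0 library, that of heifer 32, lay below the Day 60 median. The mean went from 27284 ± 9694 RPMM (SD, n = 11) to 13566 ± 3616 RPMM (SD, n = 11), that is from 2.73% to 1.36% of the miRNA reads. Heifers were also less spread on Day 60, with a coefficient of variation of 26.7% against 35.5% on Day 0, a difference that was not tested. Among the 844 rows miR-103 ranked between 5 and 23 by level on Day 0, with a median of 9, and between 14 and 25 on Day 60, with a median of 20.

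**Figure D1:**
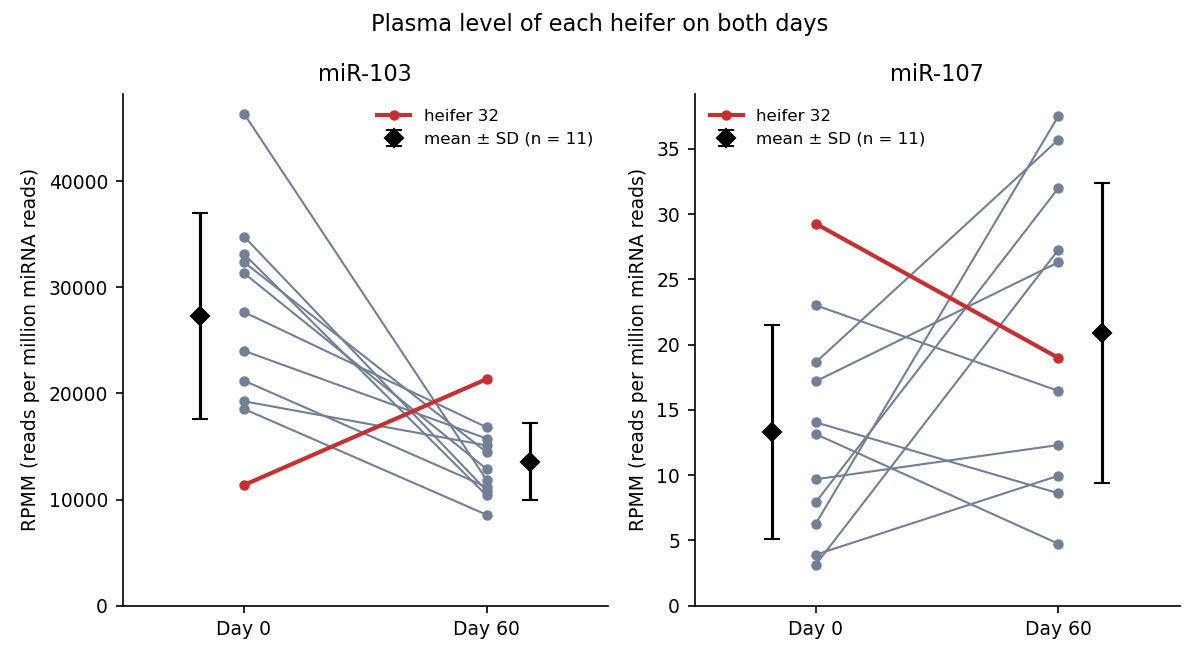
Plasma level of miR-103 (left) and miR-107 (right) in RPMM, with a line for each of the 11 heifers from Day 0 to Day 60 and black diamonds for the mean with SD bars. The lines of miR-103 run downwards in all heifers but heifer 32 (red), whereas those of miR-107 run in both directions and sit below 40 RPMM.

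Within heifers, the Day 60 level of miR-103 was 0.256 of the Day 0 level in heifer 28, 0.311 in heifer 17 and 0.314 in heifer 11, the steepest falls. It was 0.411, 0.447 and 0.462 of the Day 0 level in heifers 10, 29 and 31, and 0.527, 0.608, 0.656 and 0.784 in heifers 14, 24, 26 and 12. Only heifer 32 had a higher level on Day 60, 1.88 times that of Day 0. This heifer had the lowest level of all on Day 0 and the highest on Day 60, so its place was reversed between the days. Over all 11 heifers the mean within-heifer change of log2 RPMM was -0.96 ± 0.79 (SD), with a 95% interval of -1.45 to -0.43. It passed a two-sided sign-flip permutation test by exact enumeration (p = 0.00488, where 0.000977 is the smallest p that 11 heifers allow). Other scalings of the reads gave smaller falls, of -0.93 to -0.68, by the same test (p = 0.00879 to 0.0254).

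The deposited counts of the 195 miRNAs that passed a filter (over 25 RPMM in more than 8 libraries of a day) were then tested in edgeR by quasi-likelihood, scaled by TMM and with each heifer as its own control. FDR is the p of this fit after Benjamini-Hochberg adjustment over the 195, with a threshold of 0.05, and a negative log2 fold-change is a lower level on Day 60. miR-103 reached 0.582 of its Day 0 level on Day 60 in this fit, with a log2 fold-change of -0.78 (SE 0.24) and an edgeR FDR of 0.0220. It was lower in all heifers but 1 of the 11. Changes were common in these libraries, since 35.4% of the tested miRNAs passed the threshold and 17.9% passed it as lower. Among the 35 lower miRNAs miR-103 was the most abundant, while its fold-change ranked 20 from the lowest of the 195 and its p ranked 41. Lower levels in at least 10 of 11 heifers were rarer, at 8.72% of the tested miRNAs. The 69 calls were 34 higher and 35 lower. This split was 11 higher and 57 lower on library totals, 21 higher and 58 lower by the upper quartile, and 35 higher and 20 lower by miR-128, the miRNA the study used as a normaliser. The median log2 fold-change of all 195 moved with the scaling, from -0.06 under TMM to -0.25 on library totals and -0.22 with the upper quartile. Relative to that median, miR-103 was at -0.72 under TMM, -0.73 on library totals, -0.72 with the upper quartile, -0.71 with DESeq2 size factors and -0.71 with scaling to miR-128. These values had to be close, because a change of scaling shifts all miRNAs nearly alike. They are a description and no check of the fall. The count of 69 calls fell to 35 without heifer 28, to 43 without heifer 11 and to 44 without heifer 10.

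The call for miR-103 was close to the threshold under some settings. Without heifer 28, which had the steepest fall, the log2 fold-change was -0.66 and the FDR 0.0512, and with all 844 miRNAs in the edgeR fit it was -0.70 and the FDR 0.0670. Without heifer 32 it was -0.95, with an edgeR FDR of 0.00194.

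**Figure D2:**
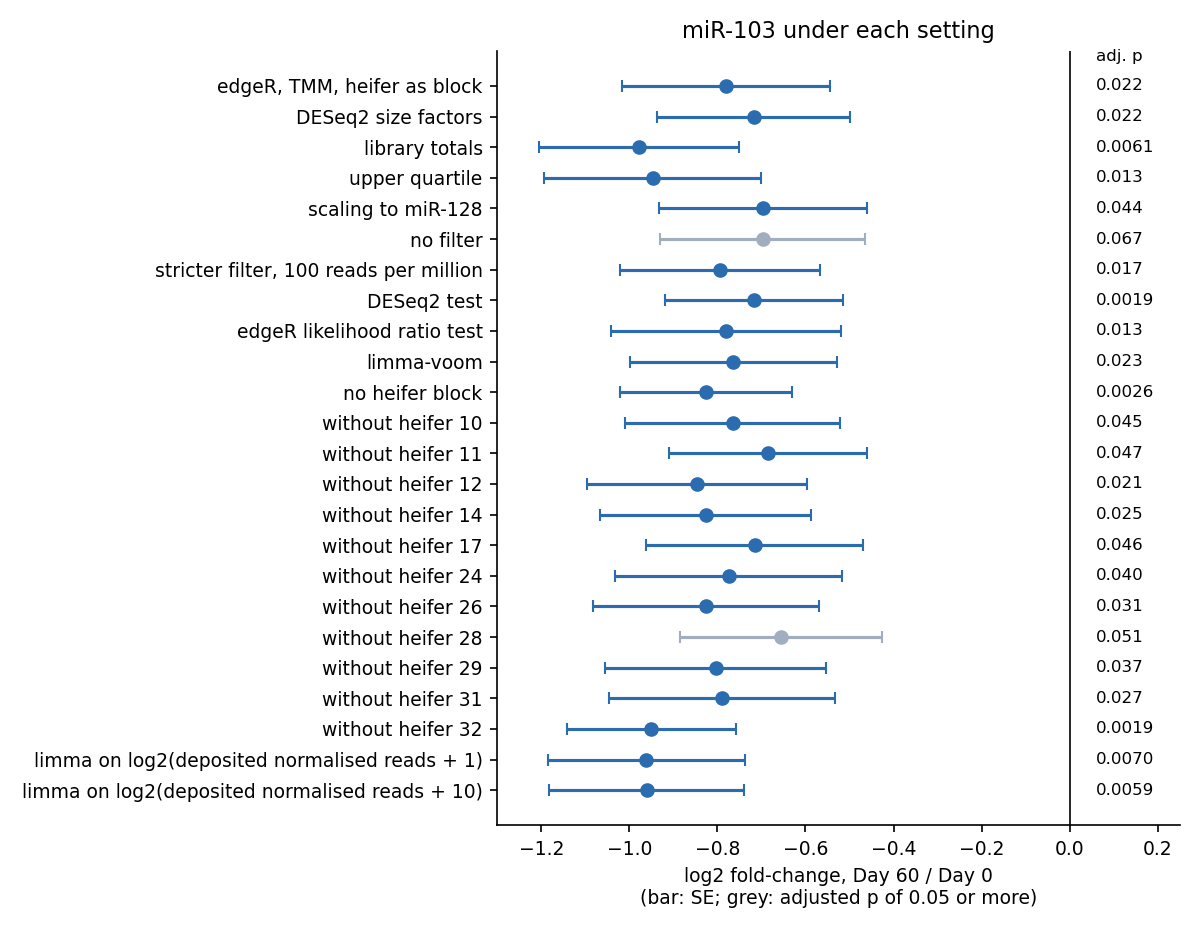
Log2 fold-change of miR-103 (x axis, Day 60 over Day 0) under each setting (y axis), with bars for the SE and the adjusted p at the right. All points lie below 0, between -0.98 and -0.66, and the grey points, without the filter and without heifer 28, have an adjusted p of 0.05 or more.

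miR-107 was a rare miRNA of plasma, with 277 to 8286 reads of miR-103 for each of its reads, and its change between the days did not pass the test. On Day 0 the lowest level was 3.15 RPMM (heifer 12), the median 13.1 and the highest 29.3 (heifer 32). On Day 60 the lowest was 4.74 RPMM (heifer 26), the median 19.0 and the highest 37.5 (heifer 11). Levels of the days overlapped widely, with 3 Day 60 libraries above all of Day 0 and 2 Day 0 libraries below all of Day 60. These levels rest on few reads, 9 to 197 per library on Day 0 and 8 to 298 on Day 60, with the lowest, 8 reads, in the shallow Day 60 library of heifer 17. By level miR-107 ranked between 192 and 303 on Day 0 and between 172 and 271 on Day 60.

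Heifers differed in direction for miR-107. Its Day 60 level was 8.66 times that of Day 0 in heifer 12, 5.97 times in heifer 11 and 4.03 times in heifer 28. It was 2.55, 1.91, 1.53 and 1.27 times that of Day 0 in heifers 29, 10, 17 and 24, and only 0.715, 0.649, 0.613 and 0.361 of it in heifers 14, 32, 31 and 26. The mean went from 13.3 ± 8.22 RPMM (SD, n = 11) to 20.9 ± 11.5 RPMM (SD, n = 11). The within-heifer change of log2(RPMM + 0.5) was 0.67 ± 1.40 (SD), with a 95% interval of -0.28 to 1.62, and was higher in 7 of 11 heifers (exact sign-flip permutation test, two-sided p = 0.148). That interval holds 0 as well as a large rise, and a fall of the size seen for miR-103 lies outside it. With reads scaled by TMM, an alternative added with the values in view, the change was 0.85 with a 95% interval of -0.04 to 1.73 (exact sign-flip permutation test, p = 0.0605).

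The level of miR-107 was under the filter of the edgeR fit, so its edgeR row comes from the fit of all 844 miRNAs. There its log2 fold-change was 0.94 (SE 0.34, edgeR adjusted p = 0.0951), in a fit where 6.4% of the miRNAs passed the threshold and 4.38% passed it as higher. It passed without heifer 32 (0.97, edgeR adjusted p = 0.0382) and without heifer 26 (1.15, edgeR adjusted p = 0.0390), the heifer with the steepest fall.

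The share of miR-107 in the reads of both miRNAs rose from Day 0 to Day 60. This share needs no scaling of the libraries, because both counts come from the same library, and the mature forms of 23 and 22 nt are close in length. On Day 0 it ran from 0.0121% (heifer 29) to 0.257% (heifer 32), with a median of 0.0494%. On Day 60 it ran from 0.0301% (heifer 26) to 0.360% (heifer 11), with a median of 0.147%. In 10 of 11 Day 60 libraries the share lay above the Day 0 median. Over the 22 libraries the highest share was 29.8 times the lowest, so the row of miR-107 did not follow that of miR-103 at a steady ratio. The within-heifer change of the log2 ratio of miR-107 to miR-103 was 1.65 ± 1.91 (SD), with a 95% interval of 0.36 to 2.93, and was higher in 9 of 11 heifers (exact sign-flip permutation test, two-sided p = 0.0215). The exceptions were heifers 26 and 32. The p was between 0.00977 and 0.0430 with each heifer left out in turn. How this change divides between miR-103 and miR-107 depended on the scaling. On log2 RPMM the change was -0.96 for miR-103 and 0.67 for miR-107, but with TMM it was -0.77 and 0.85. The ratio holds the fall of miR-103, so it is not separate evidence of a rise of miR-107. On RPMM the change of miR-107 itself did not pass (exact sign-flip permutation test, p = 0.148).

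Counting error was smaller than the spread between heifers for this share. In heifer 28 the share went from 0.0171% (95% Wilson interval 0.0124% to 0.0237%) to 0.269% (0.221% to 0.328%). In heifer 32 it went the other way, from 0.257% (0.223% to 0.295%) to 0.0888% (0.0758% to 0.104%). The widest interval on Day 60 was that of heifer 17, 0.123% to 0.477% around 0.242%, from its 8 reads of miR-107. Reads were not marked by molecular identifiers, so these intervals cover counting error only.

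**Figure D3:**
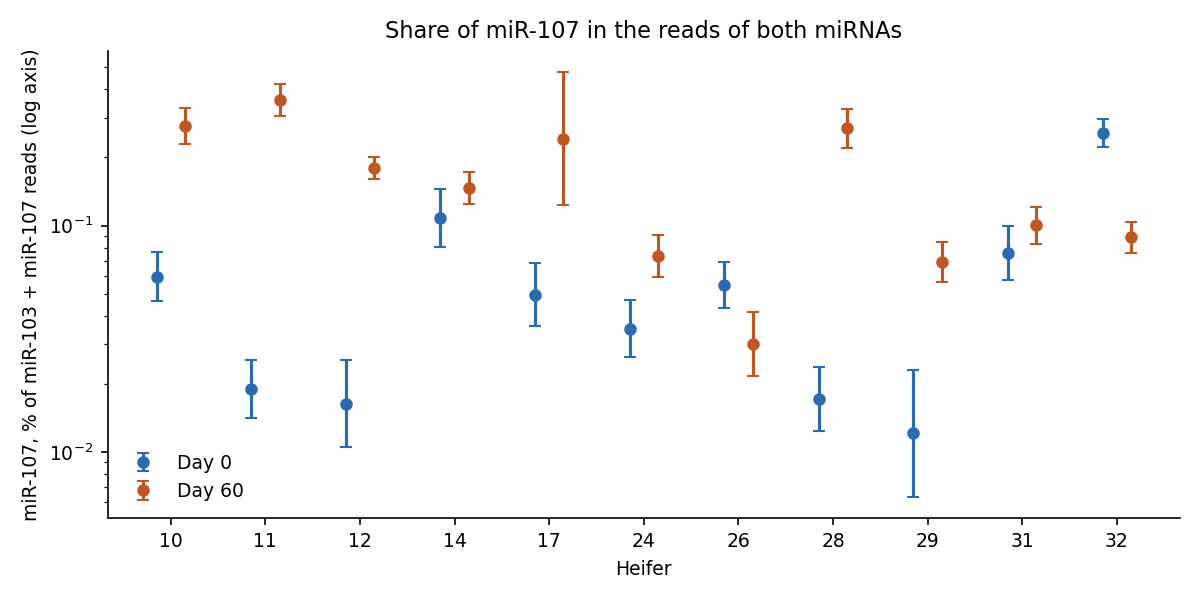
Share of miR-107 in the reads of miR-103 and miR-107 together (y axis, log scale, in %) for each of the 11 heifers on Day 0 (blue) and Day 60 (orange), with 95% Wilson intervals. Day 60 lies above Day 0 in 9 of 11 heifers, and heifers 26 and 32 go the other way.

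With the reads of both rows summed into 1, which removes any dependence on how reads were split between them, the result was that of miR-103. The summed log2 fold-change was -0.78 (SE 0.24, edgeR FDR 0.0221), and it was -0.65 with an edgeR FDR of 0.0512 without heifer 28. miR-107 was too rare for its reads to move the sum.

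Among the tested miRNAs of the miR-15 and miR-107 group, miR-103 was the one called lower. The group as listed has 10 members, of which 7 were tested, and of these 1 was lower (miR-103) and 2 were higher on Day 60, beside 17.9% lower and 17.4% higher over all tested miRNAs. The median log2 fold-change of the 7 was 0.45, against -0.06 for all 195 tested. The higher members were miR-16b, which rose in 9 of 11 heifers, at 0.68 (SE 0.26, edgeR FDR 0.0487), and miR-195, which rose in 8 of 11, at 0.64 (SE 0.22, edgeR FDR 0.0350). miR-15 and miR-16 are known from human cells as repressors of cell cycle genes and of the survival gene BCL2, and miR-195 shares their seed. miR-15a at 0.37, miR-15b at 0.45, miR-16a at 0.79 and miR-497 at -0.28 did not pass (edgeR FDR 0.143, 0.0883, 0.0669 and 0.236). Both higher calls were near the threshold. miR-16b lost its call without any 1 of heifers 10, 11, 14, 17, 26, 28, 29 and 31, with an edgeR FDR of up to 0.131, and miR-195 without any 1 of heifers 11, 17, 24, 26, 28, 29 and 31, with an FDR of up to 0.0983. On library totals and with the upper quartile neither passed. Under the filter were miR-107, miR-424-5p, which had a mean of 15.5 RPMM on Day 0 and 7.79 RPMM on Day 60, and miR-503-5p, with a mean of 0.490 and 0.519 RPMM.

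The part of miR-103 in the reads of the group was examined after these values were seen. On Day 0 miR-103 took between 30.8% and 77.8% of the reads of the 10 members, with a median of 65.7%, and on Day 60 between 14.3% and 52.8%, with a median of 39.8%. Its log2 ratio to the other members together, with miR-107 left out, changed by -1.42 ± 1.40 (SD) within heifers and was lower in 10 of 11. This is a description with no test, because the ratio was chosen with the changes of its members in view. The lowest Day 60 value was in the library of heifer 17, where miR-16a reached 20587 RPMM against a median of 2163 over all libraries. Without heifer 17 the change was -1.15.

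Of 16 miRNAs listed for roles in sugar and fat metabolism, miR-103 and miR-107 apart, 14 were tested, and 2 were higher and 2 lower on Day 60, which is near the background of 17.4% higher and 17.9% lower over all tested miRNAs. Their median log2 fold-change was -0.02, beside -0.06 for all tested. The lower members were miR-375, which restrains insulin secretion in mice, at -0.97 (SE 0.30, edgeR FDR 0.0220), and miR-27a-3p, an inhibitor of fat cell formation in mouse cells, at -0.82 (SE 0.22, edgeR FDR 0.0137). The higher members were miR-143, which impairs insulin action in the liver of obese mice, at 1.63 (SE 0.37, edgeR FDR 0.00866), and miR-26a, which raises insulin sensitivity in mouse liver, at 0.85 (SE 0.26, edgeR FDR 0.0220). miR-122, the main miRNA of liver cells, and miR-34a were under the filter.

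**Figure D4:**
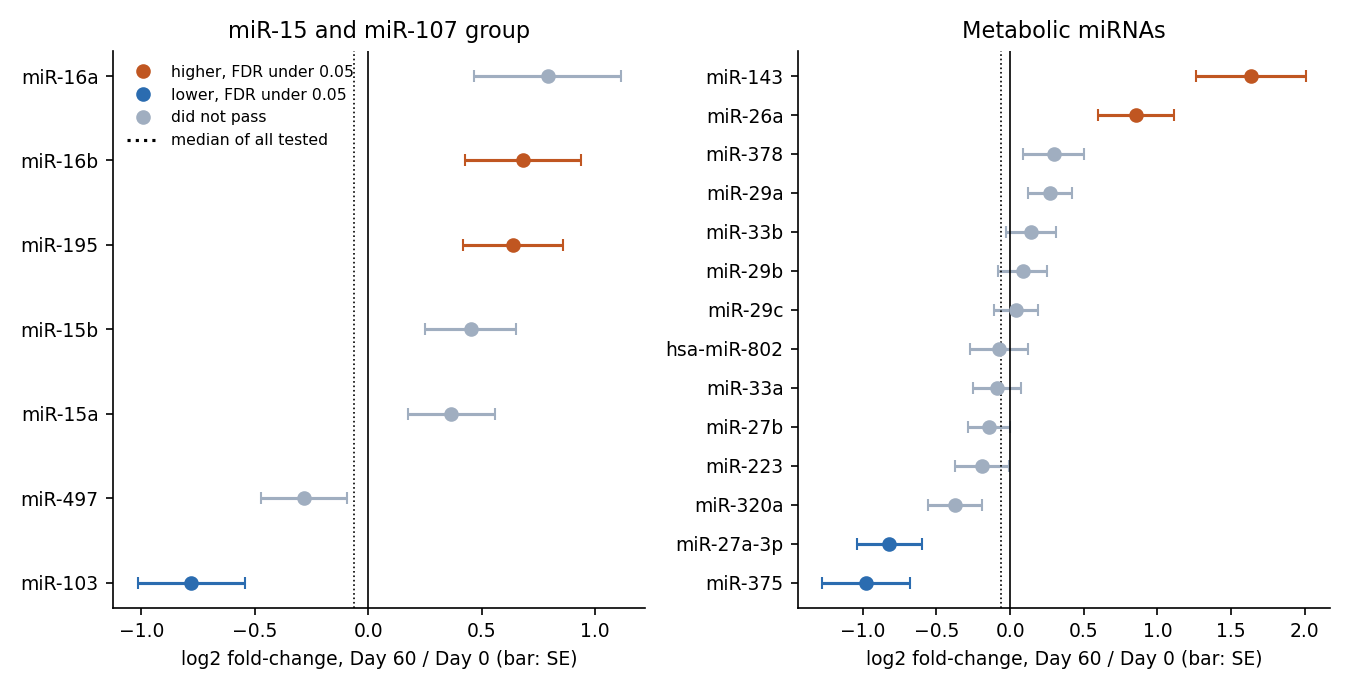
Log2 fold-change of the tested members of the miR-15 and miR-107 group (left) and of the metabolic list (right), Day 60 over Day 0 with SE bars, orange for higher and blue for lower at an FDR under 0.05, grey for the rest, and a dotted line at the median of all tested miRNAs. miR-103 is the lowest of its group, at -0.78, and the metabolic list spreads from -0.97 to 1.63.

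The levels most like that of miR-103 were sought as the smallest SD, over the 22 libraries, of the log2 ratio of each tested miRNA to miR-103. The closest 5 were miR-423-3p (SD 0.213), miR-147 (0.233), miR-27a-3p (0.247), miR-1388-3p (0.261) and the human homologue row of miR-210-3p (0.288), with miR-22-5p next (0.293). The median SD over the tested miRNAs was 0.744. miR-147 is induced in mouse macrophages by Toll-like receptor signals, and miR-210 is known for its induction in low oxygen. A miRNA chosen for a steady ratio to miR-103 must move with it, so the changes of these 5 are a description. Their log2 fold-changes were -0.91, -0.66, -0.82, -0.55 and -0.77 in the order given, with edgeR FDR of 0.0111, 0.0405, 0.0137, 0.0538 and 0.0125. miR-147 missed the threshold without any 1 of heifers 10, 11, 17, 26, 28, 29 and 31 (edgeR FDR up to 0.0983), and miR-1388-3p passed in 11 alternatives, among them those without heifer 12 (0.0474) and without heifer 32 (0.00785). On the deposited RPMM, where human rows have their own scale, miR-210-3p turned to 0.18. In level they ranged widely, and miR-423-3p went from a mean of 17502 to 8427 RPMM, close to miR-103, while miR-147 went from 140.3 to 74.2 RPMM. All of them were low in heifer 32 on Day 0, as miR-103 was. miR-107 was far from this pattern, with an SD of 1.46, and 185 of the 194 tested miRNAs compared had a steadier ratio to miR-103 than its paralogue.

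**Figure D5:**
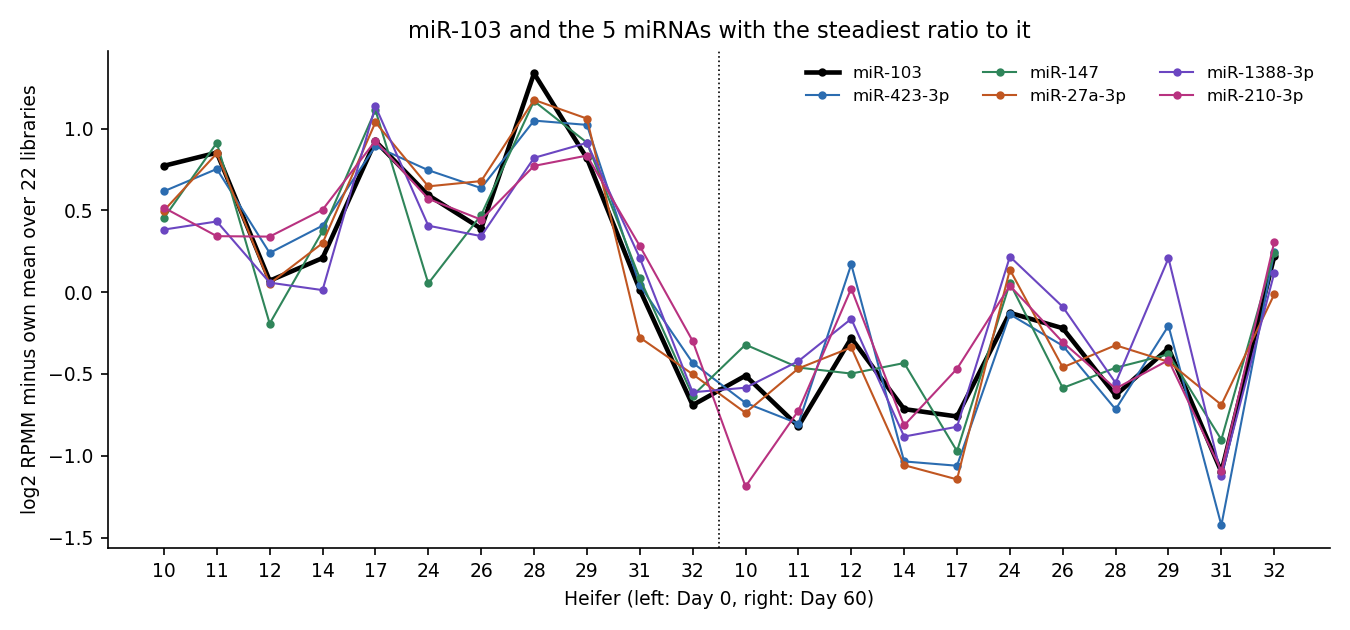
Log2 RPMM of miR-103 (black) and of the 5 miRNAs with the steadiest ratio to it, each less its own mean over the 22 libraries, with Day 0 of the 11 heifers on the left and Day 60 on the right of the dotted line. The lines run close together, are high in heifers 17, 28 and 29 on Day 0 and are low in heifer 32 on Day 0 and heifer 31 on Day 60.

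Levels of red cell miRNAs are given here because plasma takes them up when red cells break. The study used the ratio of miR-451, a red cell miRNA, to miR-23a as a measure of haemolysis. It reported most of its plasma samples under its cut-off, which it read as absence of haemolysis. That screen also held days that were not sequenced, and its cut-off was not applied here. In the sequencing reads, the log2 ratio of miR-451 to miR-23a went from a median of 0.87 on Day 0 to 3.10 on Day 60. It was higher in 9 of 11 heifers (exact sign-flip permutation test, two-sided p = 0.00488). miR-23a itself was lower on Day 60, at -1.18 (edgeR FDR 0.00837), and its log2 ratio to miR-103 had an SD of 0.319 over the 22 libraries, so this ratio is not a measure of red cells alone. The highest Day 0 ratio, 3.74, was in heifer 32, the heifer in which miR-103 was lowest that day. miR-451 itself was higher on Day 60 at 0.79 (edgeR FDR 0.0425), a call lost without any 1 of heifers 10, 11, 14, 17, 26, 28, 29 and 31 (FDR up to 0.119). Of the 4 erythroid miRNAs listed, 4 were tested and none was at 0 throughout. Of these 1 was higher, beside 17.4% higher over all tested miRNAs. Together these 4 took 6.70% to 32.7% of the reads on Day 0 and 12.1% to 35.9% on Day 60. The difference did not pass the exact sign-flip permutation test within heifers (p = 0.307). The mean sum was 18.3% on Day 0 and 21.5% on Day 60. Most of it was miR-486, with a mean of 163286 RPMM on Day 0 and 187119 RPMM on Day 60. The part of red cell miRNAs in the fall of miR-103 was not tested.

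Of 7 leukocyte miRNAs 3 were higher on Day 60 (miR-150, miR-142-5p and miR-155) and none lower, beside 17.4% higher and 17.9% lower over all tested miRNAs. Without heifer 28 miR-150 and miR-142-5p missed the threshold (edgeR FDR 0.0512 for each), as miR-142-5p did without heifer 11 (edgeR FDR 0.0536). In all, miR-142-5p missed it in 7 alternatives, with an adjusted p of up to 0.0910. The summed share of the 7 ran from 3.24% to 4.72% of the reads on Day 0 and from 3.42% to 6.91% on Day 60. It was higher in 9 of 11 heifers (exact sign-flip permutation test, p = 0.0137). The mean sum was 3.81% on Day 0 and 5.06% on Day 60. Most of it was miR-142-5p, with a mean of 31251 RPMM on Day 0 and 40061 RPMM on Day 60. The test of the sum thus largely restates that miRNA. Of the tested members of the platelet list (6), the hepatocyte list (2) and the muscle list (2), none passed in either direction. The part of these cells in the levels of miR-103 and miR-107 was not tested. Single libraries stood apart for some of these markers. miR-122 was at 22843 RPMM in the Day 60 library of heifer 17 against a median of 43.1, and miR-133a was at 9849 RPMM in that of heifer 28 against a median of 628. The change of miR-103 without each of these heifers, -0.72 (edgeR FDR 0.0464) without heifer 17 and -0.66 (edgeR FDR 0.0512) without heifer 28, kept its direction.

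Relative to miR-128, miR-103 fell and miR-107 was higher. The log2 ratio of miR-103 to miR-128 went from 3.20 ± 0.57 (SD, n = 11) to 2.52 ± 0.33 (SD, n = 11) and was lower in 10 of 11 heifers (exact sign-flip permutation test, two-sided p = 0.0254). For miR-107 the mean within-heifer change of this ratio was 0.97, higher in 8 of 11 heifers (exact sign-flip permutation test, two-sided p = 0.0391). miR-128 itself went from a mean of 2785 RPMM on Day 0 to 2336 RPMM on Day 60. By the same test the change of miR-107 passed with DESeq2 size factors (p = 0.0479). It did not pass on RPMM (p = 0.148), with TMM (p = 0.0605) or with the upper quartile (p = 0.0879).

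Across the 11 heifers neither miRNA kept the order of the animals from one day to the other in a way the tests could show. Over the 6 relations computed, the level of miR-103 on Day 0 and on Day 60 had a Pearson r of -0.419 (permutation p = 0.199, adjusted 0.647) while Spearman's rho was -0.336 (permutation p = 0.312, adjusted 0.734), and r was 0.10 without heifers 28 and 32. For miR-107 r was -0.0740 (permutation p = 0.829, adjusted 0.829) and rho was -0.10 (permutation p = 0.777, adjusted 0.799), with an r of -0.150 without heifers 12 and 29. miR-103 and miR-107 had an r of -0.377 on Day 0 (permutation p = 0.256, adjusted 0.647) and of -0.172 on Day 60 (permutation p = 0.610, adjusted 0.733). The level of miR-103 against log2 total reads had an r of -0.296 on Day 0 and 0.266 on Day 60 (permutation p = 0.382 and 0.431, both adjusted 0.647). Spearman's rho in these last 4 relations lay between -0.345 and 0.0909 (permutation p between 0.298 and 0.799, adjusted 0.734 to 0.799), and r without the 2 heifers farthest from the median lay between -0.642 and 0.0192. In a further 6 relations, chosen after the values were seen, miR-103 and miR-451 on Day 0 had an r of -0.664 (permutation p = 0.0262, adjusted 0.157) with a rho of -0.50 (permutation p = 0.121, adjusted 0.341). This relation rested on 2 heifers, since r was -0.256 without heifers 12 and 32. The other 5 relations of miR-103 and miR-107 to miR-451 had an r between -0.504 and 0.170. Their adjusted permutation p was 0.310 to 0.612, and that for rho was 0.341 to 0.754. Among them, the within-heifer changes of miR-103 and miR-451 had an r of -0.504 (permutation p = 0.113, adjusted 0.310). Their rho was -0.536 (permutation p = 0.0953, adjusted 0.341), and r was -0.546 without heifers 14 and 17.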

How the data were processed

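Libraries were made by the authors from plasma RNA (TRIzol LS, TruSeq Small RNA kit) and sequenced as short single-end reads. sRNAbench, run by the authors on bosTau4 and miRBase with 1 mismatch allowed (submitters' notes name Bowtie 0.12.9), gave the deposited counts of each mature miRNA. The second deposited table holds a normalised signal (RPMM), with separate totals for bovine and for human rows, and was used only as an alternative. Its 22 values of each of the 2 miRNAs matched the counts within 0.2%. Elsewhere 314 cells did not, none of them in a tested miRNA.

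Counts were tested with edgeR 4.0.16 (R 4.3.3), and members' differences by flipping the signs of heifers in an exact permutation test (2048 patterns, two-sided), with a pseudocount of 0.5. Intervals of these differences hold the shifts that the test does not reject. Correlations used 100000 permutations. Alternatives used DESeq2 1.42.0 and limma 3.58.1. Tables and tests of single values were made in pandas 2.3.3, numpy 2.4.6 and scipy 1.17.1, under Python 3.11.15, and figures in matplotlib 3.10.9. The edgeR step was tried on counts simulated without differences between heifers, so the pairing was not exercised. It recovered 33% of 1.5-fold and 83.5% of 2-fold changes. The sign-flip tests and correlations were not tried on simulated data.

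The labels give the animal of each library, which paired the days. Libraries of the same animal correlated, as deviations from the mean of their day, at a mean of 0.141, against -0.00628 for other animals, and 3 of 11 correlated best with their own. P-values of the paired tests measure how the change within an animal varies over these animals. Those of correlations and of tests without pairing use the spread between animals.

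The miRNAs, lists and tests were chosen with earlier results of these data known. Named miRNAs are miR-103 and miR-107, list members, the 5 closest to miR-103, miR-128, and miR-451 with miR-23a. miR-22-5p was named after its value was seen. Alternatives were other scalings, filters, tests, pseudocounts, units, thinning to the shallowest library, no block and each heifer left out. Raw reads and RT-qPCR were not analysed here.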

Additional observations from a re-analysis of the deposited data

How the results depend on the processing

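miR-103 was lower on Day 60 under every alternative run, at -0.95 to -0.66 with each heifer left out and -0.98 to -0.70 otherwise. It missed the threshold without the filter (-0.70, edgeR adjusted p = 0.0670) and without heifer 28. The summed reads behaved alike, at -0.70 without the filter (edgeR adjusted p = 0.0668) and at -0.95 to -0.65 with heifers left out. The sign-flip change of miR-103 on RPMM was -1.15 to -0.86 with heifers left out. With TMM it was -0.77 (exact sign-flip test, p = 0.0176) and with DESeq2 size factors -0.71 (exact sign-flip test, p = 0.0146). With the upper quartile it was -0.93 (exact sign-flip test, p = 0.00879) and with scaling to miR-128 -0.68 (exact sign-flip test, p = 0.0254). These scalings of the test were added with the values in view. miR-107 had a change of 0.44 to 0.87 with heifers left out and 0.49 to 0.93 otherwise, thinning apart. Thinned to the shallowest library, its change was 1.28 ± 2.24 (SD) (exact sign-flip test, p = 0.0918). That value leans on the pseudocount, because the Day 0 libraries of heifers 12 and 29 kept 0 reads of miR-107. miR-107 passed the exact sign-flip test with DESeq2 size factors (0.91, p = 0.0479) and with scaling to miR-128 (0.93, p = 0.0391). Its edgeR value without the filter was 0.72 to 1.15 with heifers left out. A stricter filter gave no value for miR-107. The ratio of miR-107 to miR-103 changed by 1.39 to 1.97 with heifers left out and kept its call under all alternatives run.

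Without the replicate block, miR-103 was at -0.83 (edgeR adjusted p = 0.00263), the summed reads at -0.82, and miR-107 in the unfiltered fit at 0.90 (edgeR adjusted p = 0.108). The count of higher members of the miR-15 and miR-107 group was 4 and that of lower metabolic miRNAs 1. For the ratio, a permutation of days without pairing gave p = 0.00569. No call for either miRNA changed.

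The higher members of the miR-15 and miR-107 group, 2 as reported, were 1 with DESeq2 size factors or scaling to miR-128. They were 0 on library totals, with the upper quartile, without the filter, with the stricter filter and with limma on the deposited RPMM at either pseudocount. With heifers left out they were 0 to 4, and the lower members 0 to 1. Lower members were 0 without the filter. Higher metabolic miRNAs were 1 on library totals and lower ones 1 without the filter, and with heifers left out they were 2 and 2 to 3. All calls together were 35 to 97 with heifers left out and 54 to 85 otherwise. miR-210-3p turned to 0.18 on the deposited RPMM at either pseudocount, where human rows have their own scale. The cause of the other changes was not tested.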
